A study of Arabidopsis thaliana with 4 samples.

Results

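Protein folding and chaperone genes were followed in germinating Arabidopsis thaliana seedlings. They were the genes whose annotation in the authors' deposited table of expression values holds the gene ontology term for protein folding. Of 23932 features in that table, 183 carried the term. Removing 3 small heat shock protein genes (HSP17.6A, AT1G59860 and AT5G37670) left 180 genes, and the heat shock chaperone HSP101 was not among them. Of these 180 genes, 178 passed a filter on low values (1 RPKM or more in both values of at least 1 sample), and AT1G71000 and AT5G05420 did not. Both were under 1 RPKM in 1 value of each sample, but had 3.92 to 20.19 RPKM in the other value. By protein family they comprised 89 J-domain proteins, 23 cyclophilins, 13 HSP70 proteins, 7 prefoldins, 6 HSP90 proteins, 6 subunits of the cytosolic chaperonin CCT, 6 organelle chaperonin genes and 30 other genes.

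RNA was sequenced from 4 samples, 1 per genotype and treatment. ZFP3ox ABA and ZFP3ox control seedlings carried the zinc finger gene ZFP3 under an estradiol-inducible driver, and wild-type ABA and wild-type control seedlings were Columbia. All 4 samples were grown on 5 µM estradiol, and the ABA samples also received 2.5 µM of the seed dormancy hormone abscisic acid (ABA). ABA samples were harvested after 84 h and control samples after 36 h, so ABA and harvest time cannot be told apart. With 1 sample per group, ratios between samples have no replicate check, and in whole seedlings fewer cells of a type and less RNA per cell cannot be told apart.

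Chaperones bind unfolded or partly folded proteins and let them reach their native form. HSP70 proteins cycle on and off their clients with the help of J-domain proteins and GrpE exchange factors, HSP90 proteins act on late folding steps of kinases and receptors, and chaperonins enclose single polypeptides in a barrel. The cytosol, the endoplasmic reticulum (ER), the plastid and the mitochondrion each hold their own set, and in germinating seeds these sets serve the renewed synthesis of proteins and the building of chloroplasts.

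RPKM (reads per kilobase of gene, scaled to library size) was deposited in a pair of columns for each sample, called set 1 and set 2 here. The low values of set 1 gave about 2.65 to 4.12 Mreads per sample, with 62.6% to 65.1% of the values checked within 0.1 read of a whole number. With no steps, a depth fixed in advance would give 20%. Here the depth was searched for a high share, so a search with no steps would give more than 20%, and how much more was not computed. In set 2 the same estimate gave 2.02 to 2.66 Mreads with 30.1% to 35.1% of values within that tolerance, so it is less certain and not shown to be the depth. The median feature had 10.45 to 15.58 RPKM in set 1 and 3.26 to 4.19 RPKM in set 2, so values are compared within a set. In set 1 ZFP3 had 85.4 RPKM in ZFP3ox ABA, 176 in ZFP3ox control, 15.7 in wild-type ABA and 8.66 in wild-type control seedlings. RAB18, a dehydrin gene used as an ABA marker, had 363 RPKM in ZFP3ox ABA, 16.9 in ZFP3ox control, 1114 in wild-type ABA and 25.4 in wild-type control seedlings. Ratios are differences of log2(RPKM + 1) within a set, averaged over both sets, and this pseudocount understates changes of weak genes.

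Folding genes were expressed somewhat above the typical gene, with a median level of 10.88 RPKM (geometric mean over all 8 columns) against 7.28 RPKM for all features. Their levels ran up to 744.54 RPKM for AT3G11450, a J-domain protein with a Myb-type domain. AT3G11450 alone held 11.4% to 17.5% of the summed RPKM of the 180 genes in any column. HSC70-1 (AT5G02500), the main constitutive cytosolic HSP70, followed with 522.28 RPKM. The next levels were 139.22 RPKM for the cytosolic cyclophilin ROC5, 126.22 RPKM for CPN60A, the alpha subunit of the plastid chaperonin, 108.70 RPKM for the cytosolic thioredoxin TRX3 and 96.41 RPKM for the cytosolic HSP90 gene HSP81-2. Among families of 6 or more genes the median level was highest for HSP90, 43.72 RPKM, and stood at 31.57 RPKM for HSP70, 30.52 RPKM for CCT, 11.90 RPKM for cyclophilins, 8.27 RPKM for J-domain proteins and 7.74 RPKM for prefoldins. In set 1 the 180 genes summed to 8024.2 RPKM in ZFP3ox ABA, 10856.2 in ZFP3ox control, 11285.7 in wild-type ABA and 12709.6 in wild-type control seedlings. In set 2 the sums were 2303.2 RPKM in ZFP3ox ABA, 2398.9 in ZFP3ox control, 2672.4 in wild-type ABA and 2109.1 in wild-type control seedlings. ZFP3ox ABA had the lowest sum in set 1 but not in set 2, where wild-type control was lower.

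The first question was how the folding genes stood in ZFP3ox seedlings on ABA against ZFP3ox seedlings without it. Of 178 genes, 15 were at least 2-fold lower with ABA, where 2.23% of all 22646 genes kept were, and 6 were at least 2-fold higher, where 4.55% of all genes were. Of the 6, TCP-1 and AT1G56300 were past 2-fold in both sets, where 1.02% of all genes were. The 15 lower genes were grouped by a hand-made list of compartments. That list placed 6 in the plastid, 5 in the ER and 3, all HSP90 or HSP70 genes, in the cytosol. The remaining gene, AT3G47650, encodes a DnaJ-type zinc finger protein and had no compartment assigned. The plastid count therefore covers listed genes only, and plastid proteins outside the list are not counted. Of the 15, 7 were past 2-fold in both sets (0.729% of all genes were), namely SHD, BIP1, HSP81-2, AT3G09440, cpHsc70-1, CPN60B and CPN60A. The median ratio of the folding genes was 0.04 on the log2 scale, against 0.21 for all genes.

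Level moved with this result. Of the 43 folding genes at 20 RPKM or above, a level chosen after the values were seen, 13 (30.2%) were at least 2-fold lower with ABA in ZFP3ox, and of all 2210 genes at that level 14.2% were. At that level 1 folding gene was at least 2-fold higher, TCP-1, against 4.48% of all genes. Of the 135 weaker folding genes, 2 were lower (1.48%) and 5 higher (3.70%), near the 0.944% and 4.56% of all weaker genes. The part of level in the result was not tested.

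In wild type the same comparison gave 4 folding genes at least 2-fold lower with ABA, where 2.86% of all genes were, and 10 at least 2-fold higher, where 4.65% of all genes were. The 4 lower genes were ROC4, CYP38, BIP2 and AT5G42000, and none of the 4 was past 2-fold in both sets, where 1.37% of all genes were. The 10 higher genes included HSC70-1, the HSP110-type HSP70 gene AT1G11660 and 5 J-domain genes, and 4 of the 10 were past 2-fold in both sets, where 1.46% of all genes were: AT1G11660, AT1G56300, AT1G77930 and AT4G33060. The median ratio was 0.03, against 0.15 for all genes. Of the 43 folding genes at 20 RPKM or above, 2 were at least 2-fold lower, 4.65%, against 10.9% of all genes at that level, and 3 were at least 2-fold higher, 6.98%, against 5.79%.

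**Figure D1:**
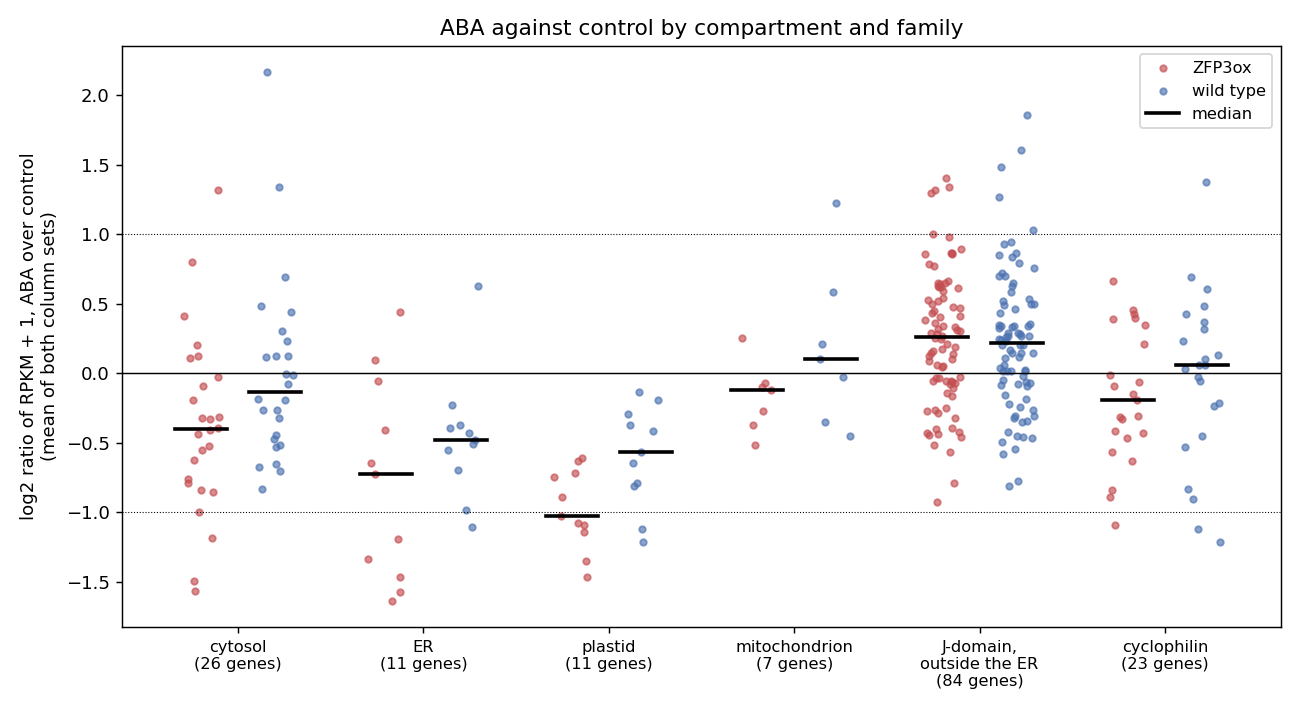
Log2 ratio of ABA over control (vertical axis, mean of both column sets) for folding genes by compartment or family, 1 point per gene, with ZFP3ox left of wild type in each group, a black bar at the median, and dotted lines at 2-fold. The 11 genes listed as plastid sit below 0 in both genotypes, with medians of -1.02 in ZFP3ox and -0.56 in wild type, while the 84 J-domain genes outside the ER have medians of 0.26 in ZFP3ox and 0.22 in wild type.

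HSP90 genes were the family with the lowest median ABA ratio among those with over 5 members, -1.13 in ZFP3ox and -0.69 in wild type. HSP81-2 (AT5G56030), a constitutive cytosolic HSP90, had 96.1 RPKM in ZFP3ox ABA, 388 in ZFP3ox control, 188 in wild-type ABA and 455 in wild-type control seedlings in set 1. In set 2 it had 25.6 RPKM in ZFP3ox ABA, 57.1 in ZFP3ox control, 45.0 in wild-type ABA and 35.6 in wild-type control seedlings. ZFP3ox ABA was thus the lowest sample in both sets, but wild-type ABA was below its control in set 1 only. The log2 ratio of ABA to control was -2.003 and -1.13 in ZFP3ox (set 1 and set 2), against -1.27 and 0.33 in wild type.

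HSP81-3 (AT5G56010), its near copy, had ratios of -1.80 and -0.57 in ZFP3ox, against -1.36 and 0.02 in wild type. Hsp81.4 (AT5G56000) had mean ratios of -0.62 in ZFP3ox and -0.70 in wild type. These cytosolic HSP90 genes share sequence: 18.0% of the 50-base windows of HSP81-2, 23.9% of those of HSP81-3 and 18.7% of those of Hsp81.4 occur in another gene, and reads with several matches were used, so values of each single gene are uncertain. Windows were matched exactly, while reads could hold up to 2 mismatches. Shares of windows here and below are therefore minimum values, and related genes with no shared window may still share reads. SHD and CR88, the HSP90 proteins of the ER and the plastid, are described with their compartments. Hsp89.1, the mitochondrial HSP90, had a mean ratio of -0.27 in ZFP3ox and 0.11 in wild type.

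Cytosolic HSP70 genes differed among themselves. In set 1 HSC70-1 had 762 RPKM in ZFP3ox ABA, 799 in ZFP3ox control, 1812 in wild-type ABA and 1029.6 in wild-type control seedlings. In set 2 it had 259 RPKM in ZFP3ox ABA, 279 in ZFP3ox control, 497 in wild-type ABA and 136 in wild-type control seedlings. Wild-type ABA was the highest sample in both sets. Its ABA ratios were therefore -0.07 and -0.11 in ZFP3ox, against 0.82 and 1.87 in wild type.

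AT1G11660, an HSP110-type protein that in yeast and animals acts as an exchange factor for HSP70, had 91.4 RPKM in ZFP3ox ABA, 80.1 in ZFP3ox control, 149.9 in wild-type ABA and 22.0 in wild-type control seedlings in set 1. In set 2 it had 6.96 RPKM in ZFP3ox ABA, 8.43 in ZFP3ox control, 47.2 in wild-type ABA and 14.7 in wild-type control seedlings. Its ABA ratios in ZFP3ox were 0.19 and -0.24, and in wild type they were 2.71 and 1.62, the highest mean among the folding genes there. The ZFP3ox samples were close to each other in each set, and the wild-type samples far apart.

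AT3G09440, another constitutive cytosolic HSP70, stood with the lower genes. It had 55.3 RPKM in ZFP3ox ABA, 201 in ZFP3ox control, 84.1 in wild-type ABA and 272 in wild-type control seedlings in set 1, and 10.4 RPKM in ZFP3ox ABA, 24.1 in ZFP3ox control, 24.03 in wild-type ABA and 13.5 in wild-type control seedlings in set 2. ABA ratios were -1.84 and -1.14 in ZFP3ox, and -1.68 and 0.79 in wild type, where the sets had opposite signs. An annotated small nucleolar RNA lies within AT3G09440 on the same strand, and these libraries were depleted of ribosomal RNA rather than selected for poly(A), so its reads cannot be told apart from those of the gene.

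The stress-inducible gene HSP70 (AT3G12580) had a mean ABA ratio of 0.41 in ZFP3ox and 0.44 in wild type, and Hsp70b (AT1G16030) of -0.41 in ZFP3ox and -0.19 in wild type. HSP70T-2 had -0.32 in ZFP3ox and 0.12 in wild type. HSP91 (AT1G79930), a second HSP110-type gene, had ratios of -1.38 and -0.61 in ZFP3ox, and -1.13 and 0.97 in wild type. The HSP70 family as a whole differed between sets in wild type, with a median ABA ratio of -1.13 in set 1 and 0.63 in set 2, while in ZFP3ox it was -0.97 in set 1 and -0.24 in set 2. All 13 HSP70 genes had a lower mean ABA ratio in ZFP3ox than in wild type, with differences from -2.19 to -0.03. So did 106 of all 178 folding genes, 46.5% of all genes and 62.7% of those at 20 RPKM or above.

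**Figure D2:**
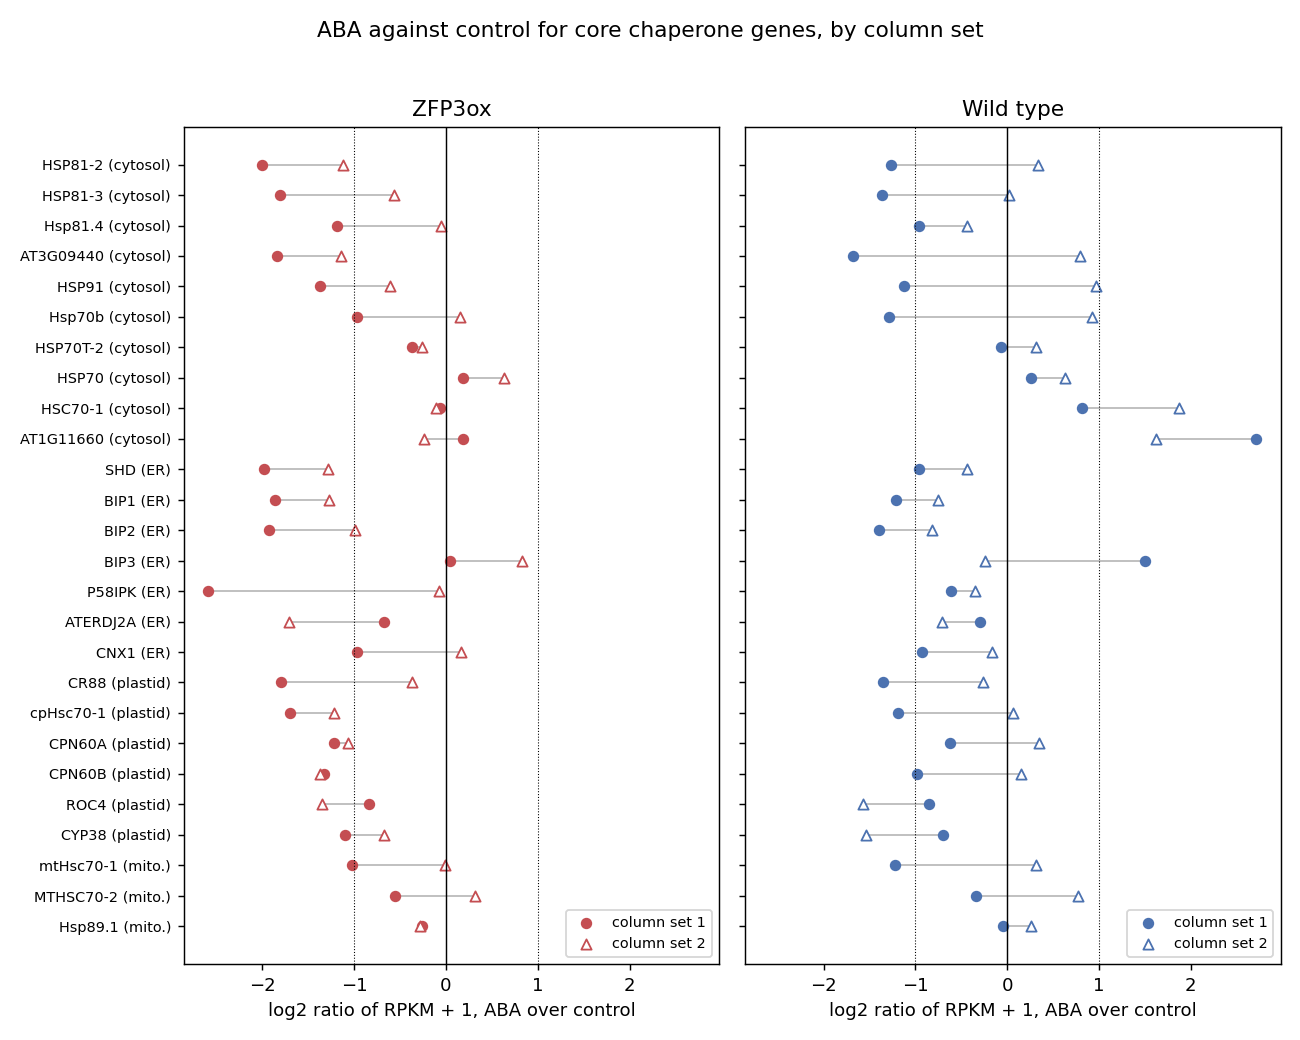
Log2 ratio of ABA over control (horizontal axis) for 26 core chaperone genes, with ZFP3ox left of wild type, filled circles for column set 1, open triangles for column set 2 and dotted lines at 2-fold. In ZFP3ox, SHD, BIP1, HSP81-2, AT3G09440, cpHsc70-1, CPN60A and CPN60B lie past 2-fold lower in both sets, whereas in wild type HSP81-2, AT3G09440, cpHsc70-1, CPN60A and CPN60B have set 2 values above 0.

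Of 11 folding genes listed for the ER, 5 were at least 2-fold lower with ABA in ZFP3ox, where 2.23% of all genes and 14.2% of those at 20 RPKM or above were. In wild type 1 of the 11 was, where 2.86% of all genes and 10.9% of those at 20 RPKM or above were, with median ratios of -0.73 in ZFP3ox and -0.48 in wild type. SHD (AT4G24190), the ER member of the HSP90 family, needed in Arabidopsis for the folding of CLAVATA proteins, had 38.4 RPKM in ZFP3ox ABA, 155 in ZFP3ox control, 85.5 in wild-type ABA and 167 in wild-type control seedlings in set 1. In set 2 it had 12.4 RPKM in ZFP3ox ABA, 31.6 in ZFP3ox control, 23.3 in wild-type ABA and 31.96 in wild-type control seedlings. In both sets ZFP3ox ABA was lowest, wild-type ABA next, and the controls were close together. Its ABA ratios were -1.99 and -1.28 in ZFP3ox, the lowest mean among the folding genes, and -0.96 and -0.44 in wild type.

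BIP1 (AT5G28540) and BIP2 (AT5G42020) encode the ER HSP70 called BiP. BIP1 had 54.5 RPKM in ZFP3ox ABA, 202 in ZFP3ox control, 116 in wild-type ABA and 270.3 in wild-type control seedlings in set 1, and 11.6 RPKM in ZFP3ox ABA, 29.4 in ZFP3ox control, 19.2 in wild-type ABA and 33.2 in wild-type control seedlings in set 2. BIP2 had 46.5 RPKM in ZFP3ox ABA, 181 in ZFP3ox control, 93.3 in wild-type ABA and 247 in wild-type control seedlings in set 1, and 7.86 RPKM in ZFP3ox ABA, 16.6 in ZFP3ox control, 17.0 in wild-type ABA and 30.8 in wild-type control seedlings in set 2. Both ABA samples were below their controls in both sets for both genes. The ABA ratios of BIP1 were -1.87 and -1.27 in ZFP3ox and -1.21 and -0.76 in wild type. Those of BIP2 were -1.93 and -0.99 in ZFP3ox and -1.39 and -0.82 in wild type.

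By exact matches BIP1 and BIP2 share 22.9% and 23.0% of their 50-base windows with another gene, so a part of their reads may be split between them. BIP3, the BiP gene known to be induced by ER stress, was weak, with 10.9 RPKM in ZFP3ox ABA, 10.5 in ZFP3ox control, 23.4 in wild-type ABA and 7.62 in wild-type control seedlings in set 1, and 1.26 to 3.69 RPKM in set 2. Its mean ABA ratio was 0.44 in ZFP3ox and 0.63 in wild type, so it did not stand with BIP1 and BIP2.

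P58IPK, a J-domain partner of BiP, was lower with ABA in ZFP3ox through 1 column: it had 98.51 RPKM in ZFP3ox control seedlings in set 1, against 15.51 to 26.09 RPKM in the other samples of that set, and its ratios were -2.59 and -0.08. ATERDJ2A, a J-domain protein of the ER membrane that works at the protein translocation channel, had ratios of -0.68 and -1.71 in ZFP3ox, and -0.30 and -0.71 in wild type. CNX1, a calnexin that retains incompletely folded glycoproteins, had mean ratios of -0.41 in ZFP3ox and -0.55 in wild type, and CRT3, a calreticulin, had -0.05 in ZFP3ox and -0.37 in wild type.

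Motifs known from studies of ER stress in Arabidopsis were looked for from 250 bases before to 50 bases after each gene start in the RefSeq TAIR10.1 annotation, on both strands. All 180 genes had such a window, among 27444 protein-coding genes. The ER stress element, CCAAT followed after any 10 bases by CACG, was in the windows of 4 of the 180 genes (2.22%) and in 0.849% of all windows. The 4 genes, BIP3, SHD, P58IPK and CNX1, all belong to the 11 ER genes. A related element, ATTGG and CCACG with any 1 base between them, was in 0.0692% of all windows and among the folding genes in BIP2 alone. The sequences are shown because they set these ER genes side by side, each 5′ to 3′ on the strand of its gene with the match in capitals. Matches after the gene start are given without flanks.
BIP3, 174 to 156 bases before the start, chr1:2931966-2932064, minus strand: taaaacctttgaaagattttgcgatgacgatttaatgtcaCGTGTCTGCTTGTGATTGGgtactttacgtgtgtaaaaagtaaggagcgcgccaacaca
BIP3, 96 to 78 bases before the start, chr1:2931888-2931986, minus strand: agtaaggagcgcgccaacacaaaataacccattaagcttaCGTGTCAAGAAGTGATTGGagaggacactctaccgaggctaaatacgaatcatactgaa
SHD, 22 to 4 bases before the start, chr4:12556059-12556120, minus strand: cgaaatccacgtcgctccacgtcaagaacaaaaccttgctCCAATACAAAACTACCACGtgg
P58IPK, 119 to 101 bases before the start, chr5:749942-750040, plus strand: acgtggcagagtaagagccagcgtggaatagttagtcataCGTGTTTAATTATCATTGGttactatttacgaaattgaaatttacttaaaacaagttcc
P58IPK, 59 to 41 bases before the start, chr5:750002-750100, plus strand: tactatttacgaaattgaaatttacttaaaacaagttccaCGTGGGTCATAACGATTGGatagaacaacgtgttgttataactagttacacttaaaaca
CNX1, 22 to 40 bases after the start, chr5:24829861-24829879, minus strand: CGTGGCCTGTTATGATTGG
BIP2, 21 to 31 bases after the start, chr5:16810663-16810673, minus strand: ATTGGTCCACG
In BIP3, P58IPK and CNX1 the ER stress element lies on the strand opposite to the gene, and in SHD on the strand of the gene. With ABA, SHD and P58IPK were among the 15 lower genes in ZFP3ox, P58IPK through a single column. BIP3, a weak gene, and CNX1 were not, though CNX1 also had a negative mean ratio. The part of the element in these ratios was not tested. A match describes the letters of the window only.

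The heat shock element, GAA, TTC and GAA with any 2 bases between neighbouring blocks, was in the windows of 5 of the 180 genes (2.78%) and in 0.481% of all windows, and in none of the 11 ER genes. The 5 genes were AT1G71000, AT3G09440, HSP70, BOB1 and EMB1241. Matches in the cytosolic HSP70 genes and in BOB1 are shown since these genes recur in the comparisons.
AT3G09440, 34 to 46 bases after the start, chr3:2905902-2905914, minus strand: GAACATTCTCGAA
HSP70, 21 to 33 bases after the start, chr3:3993854-3993866, minus strand: GAACGTTCTCGAA
BOB1, across the start, chr5:21661432-21661444, plus strand: TTCTCGAACCTTC
The match of BOB1 lies on the strand opposite to the gene. HSP70 and AT3G09440, which both hold the element, had mean ABA ratios of 0.41 and -1.49 in ZFP3ox.

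**Figure D3:**
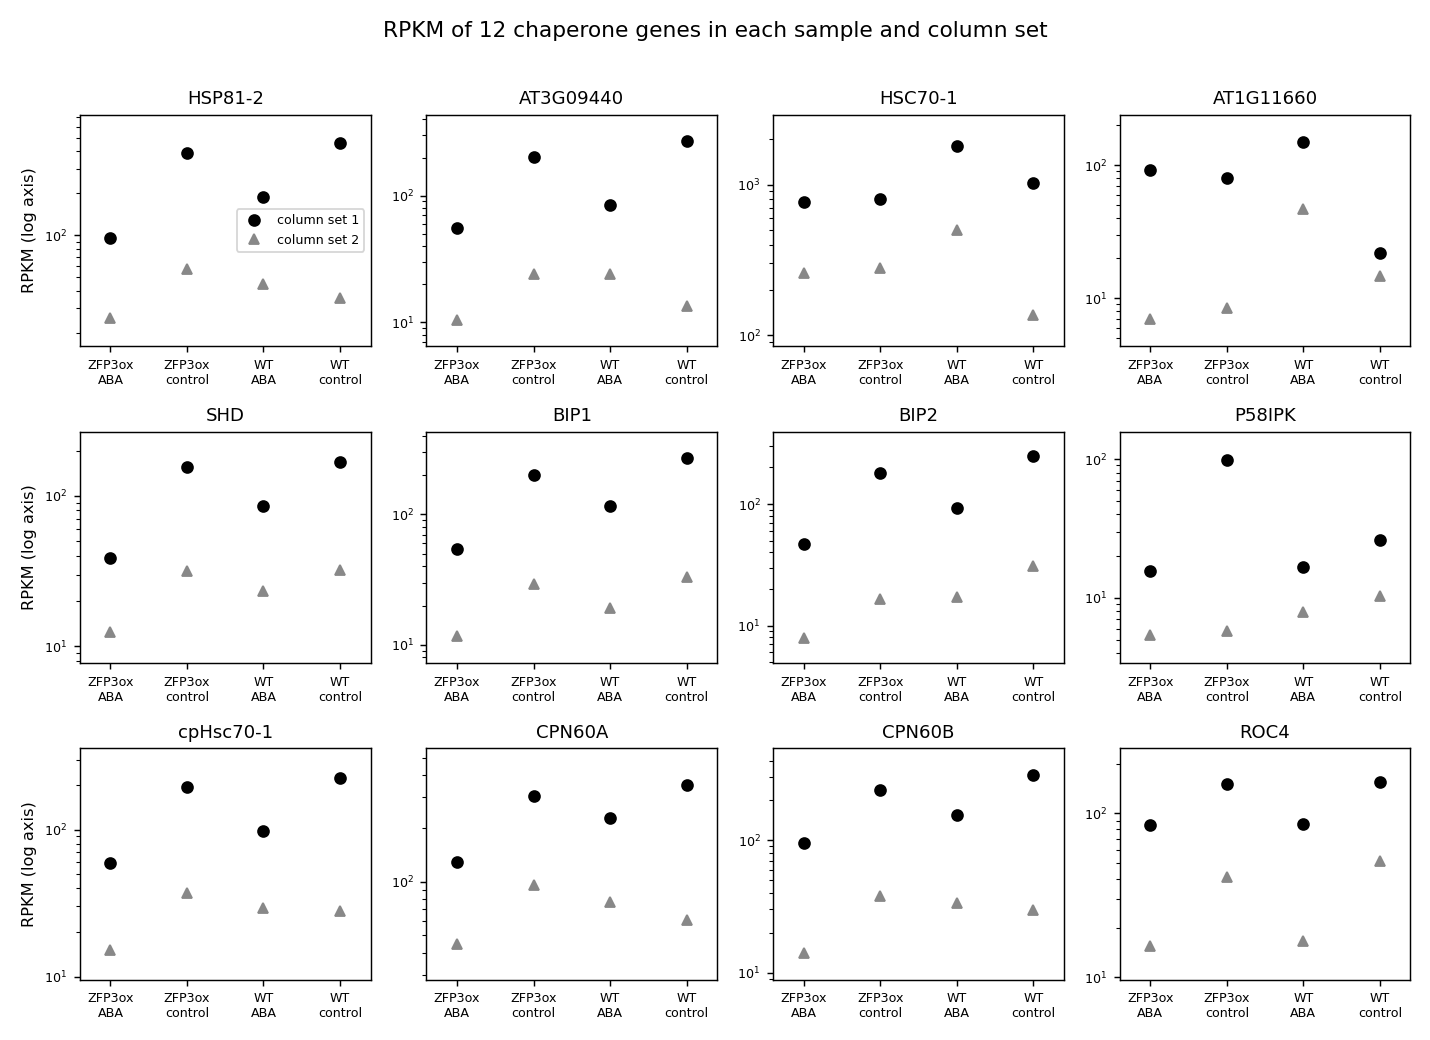
RPKM on a log axis for 12 chaperone genes in each of the 4 samples, black circles for column set 1 and grey triangles for column set 2, with no error bars since each group is 1 sample. ZFP3ox ABA is the lowest sample in both sets for HSP81-2, AT3G09440, SHD, BIP1, BIP2, cpHsc70-1, CPN60A and CPN60B, and wild-type ABA is the highest in both sets for HSC70-1 and AT1G11660.

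A hand-made list, chosen with earlier results of these data known, placed 11 folding genes in the plastid. It does not hold every plastid protein: the plastid division gene ARC6, outside it, was past 2-fold higher with ABA in both genotypes. No compartment was assigned to 123 of the genes kept, and other plastid proteins may be among them. Of these 123 genes, 57 had ABA ratios above 0 in both sets in ZFP3ox, and 22 below 0 in both. The signs given next therefore cover the listed genes only, not plastid folding genes as a whole. The 11 listed genes had ABA ratios below 0 in both sets in ZFP3ox, and 6 were at least 2-fold lower in the mean, where 2.23% of all genes and 14.2% of those at 20 RPKM or above were. In wild type the 11 were below 0 in set 1 and 5 were in set 2, and 2 were at least 2-fold lower in the mean, where 2.86% of all genes and 10.9% of those at 20 RPKM or above were. Mean ratios below 0 were found in 32% of all genes and 65.4% of those at 20 RPKM or above in ZFP3ox. In wild type these shares were 36.8% and 53.2%. The share below 0 in both sets is not given for all genes. The median ratio of the 11 listed genes was -1.02 in ZFP3ox and -0.56 in wild type.

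cpHsc70-1 (AT4G24280), a stromal HSP70 that takes part in protein import, had 59.1 RPKM in ZFP3ox ABA, 195 in ZFP3ox control, 97.4 in wild-type ABA and 223 in wild-type control seedlings in set 1, and 15.2 RPKM in ZFP3ox ABA, 36.9 in ZFP3ox control, 29.4 in wild-type ABA and 28.1 in wild-type control seedlings in set 2. CPN60A (AT2G28000), a subunit of the chaperonin that assembles Rubisco, had 130.1 RPKM in ZFP3ox ABA, 304 in ZFP3ox control, 229.6 in wild-type ABA and 353 in wild-type control seedlings in set 1, and 45.0 RPKM in ZFP3ox ABA, 95.5 in ZFP3ox control, 77.2 in wild-type ABA and 60.6 in wild-type control seedlings in set 2. CPN60B (AT1G55490), its partner subunit, had 95.6 RPKM in ZFP3ox ABA, 242 in ZFP3ox control, 156 in wild-type ABA and 309 in wild-type control seedlings in set 1, and 14.1 RPKM in ZFP3ox ABA, 38.0 in ZFP3ox control, 33.3 in wild-type ABA and 29.9 in wild-type control seedlings in set 2. In all 3 genes ZFP3ox ABA was the lowest sample in both sets, and wild-type ABA lay below its control in set 1 and above it in set 2.

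The ABA ratios in ZFP3ox were -1.70 and -1.22 for cpHsc70-1, -1.22 and -1.07 for CPN60A, and -1.33 and -1.37 for CPN60B. In wild type they were -1.19 and 0.06 for cpHsc70-1, -0.62 and 0.34 for CPN60A, and -0.98 and 0.15 for CPN60B. CR88, the stromal HSP90, had ratios of -1.79 and -0.36 in ZFP3ox and -1.35 and -0.27 in wild type.

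ROC4 (AT3G62030), a cyclophilin of the plastid stroma, was lower with ABA in both genotypes by like amounts. It had 84.4 RPKM in ZFP3ox ABA, 152 in ZFP3ox control, 86.1 in wild-type ABA and 156 in wild-type control seedlings in set 1, and 15.4 RPKM in ZFP3ox ABA, 40.8 in ZFP3ox control, 16.6 in wild-type ABA and 51.4 in wild-type control seedlings in set 2. The ABA ratios were -0.84 and -1.35 in ZFP3ox, and -0.85 and -1.58 in wild type. Proteins of the thylakoid lumen gave mean ratios of -0.89 in ZFP3ox and -1.12 in wild type for CYP38, a cyclophilin needed for photosystem II assembly, and of -1.02 in ZFP3ox and -0.79 in wild type for the immunophilin FKBP13.

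Markers of seedling stage also differed between the samples. CAB1, an antenna protein gene of the chloroplast, had 837 RPKM in ZFP3ox ABA, 1894 in ZFP3ox control, 45.5 in wild-type ABA and 1267 in wild-type control seedlings in set 1, and 284 RPKM in ZFP3ox ABA, 743 in ZFP3ox control, 13.5 in wild-type ABA and 495 in wild-type control seedlings in set 2. RBCS1A, a gene for the small subunit of Rubisco, had 173 RPKM in ZFP3ox ABA, 267 in ZFP3ox control, 115 in wild-type ABA and 203 in wild-type control seedlings in set 1, and 75.1 RPKM in ZFP3ox ABA, 328 in ZFP3ox control, 86.9 in wild-type ABA and 281 in wild-type control seedlings in set 2. Both genes were lower with ABA in both genotypes and both sets. The seed storage gene CRA1 had 125 RPKM in ZFP3ox ABA, 20.6 in ZFP3ox control, 554 in wild-type ABA and 33.8 in wild-type control seedlings in set 1, and 39.7 RPKM in ZFP3ox ABA, 8.11 in ZFP3ox control, 131 in wild-type ABA and 10.1 in wild-type control seedlings in set 2. CRC, another storage protein gene, had 50.6 RPKM in ZFP3ox ABA, 17.8 in ZFP3ox control, 246 in wild-type ABA and 27.6 in wild-type control seedlings in set 1, and 7.86 RPKM in ZFP3ox ABA, 5.16 in ZFP3ox control, 54.1 in wild-type ABA and 9.09 in wild-type control seedlings in set 2. In wild type in set 2, CAB1 and RBCS1A were lower with ABA, and 6 of the 11 listed plastid folding genes had ratios above 0. The median ratio of all genes there was -0.03. CAB1 was higher in ZFP3ox ABA than in wild-type ABA in both sets. RBCS1A was higher in ZFP3ox ABA in set 1 and lower in set 2. CPN60A and CPN60B were lower in ZFP3ox ABA in both sets. The part of seedling stage in the plastid result was not tested.

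Of the 7 folding genes listed as mitochondrial none was at least 2-fold lower with ABA in either genotype, where 2.23% of all genes in ZFP3ox and 2.86% in wild type were. Their medians were -0.12 in ZFP3ox and 0.11 in wild type. mtHsc70-1 had ratios of -1.02 and -0.01 in ZFP3ox and -1.22 and 0.31 in wild type. AR192, a mitochondrial GrpE exchange factor, was past 2-fold higher in wild type through set 2 alone, where it had 42.26 RPKM in wild-type ABA against 6.75 RPKM in wild-type control seedlings, and its set 1 ratio was -0.02. The 7 listed genes had a lower mean ABA ratio in ZFP3ox than in wild type, as did 46.5% of all genes and 62.7% of those at 20 RPKM or above. AT1G23100, an organelle chaperonin gene to which no compartment was assigned, went the other way, with ratios of 0.97 and 0.42 in ZFP3ox, against -0.59 and -0.73 in wild type.

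J-domain proteins, which deliver clients to HSP70, were 5 of the 6 higher genes in ZFP3ox and 5 of the 10 in wild type. That is 5.68% of the 88 J-domain genes kept in each genotype, near the 4.55% of all genes in ZFP3ox and 4.65% in wild type. Outside the ER, 84 J-domain genes passed the filter, with median ABA ratios of 0.26 in ZFP3ox and 0.22 in wild type, near the medians of all genes, 0.21 in ZFP3ox and 0.15 in wild type. None of the 84 was at least 2-fold lower in either genotype.

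AT1G56300, a small J-domain protein, had 20.03 RPKM in ZFP3ox ABA, 6.45 in ZFP3ox control, 29.7 in wild-type ABA and 5.79 in wild-type control seedlings in set 1, and 5.85 RPKM in ZFP3ox ABA, 2.0 in ZFP3ox control, 7.09 in wild-type ABA and 1.78 in wild-type control seedlings in set 2. Both ABA samples were above both controls in each set. The ABA ratios were 1.497 and 1.19 in ZFP3ox and 2.18 and 1.54 in wild type. It overlaps AT1G56290 on the opposite strand by 775 bases, and the authors' deposited settings state that matching used strand.

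ARC6, a J-domain-like protein of the plastid division machinery, was also past 2-fold higher in both genotypes, with ratios of 1.38 and 0.62 in ZFP3ox and 0.60 and 1.94 in wild type. In ZFP3ox the other higher J-domain genes leaned on set 2: AT2G33735 had ratios of 0.76 and 2.05, AT5G62780 0.50 and 2.14, and AT4G07990 0.25 and 2.34. In wild type AT1G77930 had 1.56 and 1.41, AT3G62190 0.86 and 1.21, and AT2G05250 2.49 and 0.72. AT2G05250 shares 96.2% of its 50-base windows with another gene, AT2G05230, so its values are uncertain. AT3G11450, the most abundant folding gene, had mean ratios of -0.16 in ZFP3ox and -0.07 in wild type.

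Among the cytosolic chaperonin genes, which fold actin and tubulin, TCP-1 (AT3G20050) stood apart from the other 5. It had 448 RPKM in ZFP3ox ABA, 179 in ZFP3ox control, 163 in wild-type ABA and 129.5 in wild-type control seedlings in set 1, and 65.3 RPKM in ZFP3ox ABA, 25.6 in ZFP3ox control, 25.3 in wild-type ABA and 20.5 in wild-type control seedlings in set 2. ZFP3ox ABA was the highest sample in both sets by more than 2-fold. The ABA ratios were 1.32 and 1.32 in ZFP3ox and 0.33 and 0.29 in wild type, while the other subunits had mean ratios between -0.85 and 0.12 in ZFP3ox.

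The 7 prefoldin genes, whose products hand actin and tubulin to CCT, had median ABA ratios of 0.20 in ZFP3ox and 0.12 in wild type. AT1G03760, a prefoldin-like protein, was the gene of this family past 2-fold, in wild type, with ratios of 0.62 and 1.40. Cyclophilins, which speed the isomerisation of proline bonds, had medians of -0.19 in ZFP3ox and 0.06 in wild type, and besides ROC4 and CYP38 the gene past 2-fold was AT4G33060. AT4G33060 had ratios of 0.41 and 0.40 in ZFP3ox, against 1.26 and 1.49 in wild type. The most abundant cyclophilins were ROC5, with ratios of -1.37 and 0.74 in ZFP3ox and -0.56 and 1.03 in wild type, and ROC3, with mean ratios of -0.84 in ZFP3ox and -0.83 in wild type. TRX3 had mean ratios of -0.52 in ZFP3ox and 0.00 in wild type, and AKR2, a carrier of plastid outer envelope proteins, had a mean ratio of -0.78 in ZFP3ox and -0.36 in wild type.

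Set side by side, the ABA lists of the genotypes shared 2 genes in each direction. The same overlap is not given for all genes, so these counts have no background. All 15 genes lower in ZFP3ox also had a mean ratio below 0 in wild type. BIP2 and ROC4 were on both lower lists, which is 2 of 15 in ZFP3ox and 2 of 4 in wild type. AT1G56300 and ARC6 were on both higher lists, 2 of 6 in ZFP3ox and 2 of 10 in wild type. Across the 178 genes the ABA ratio in ZFP3ox and that in wild type, which share no sample, had a Pearson correlation of 0.55, against 0.45 over all genes, and within sets it was 0.66 in set 1 and 0.20 in set 2. Genes share libraries and are not independent replicates.

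**Figure D4:**
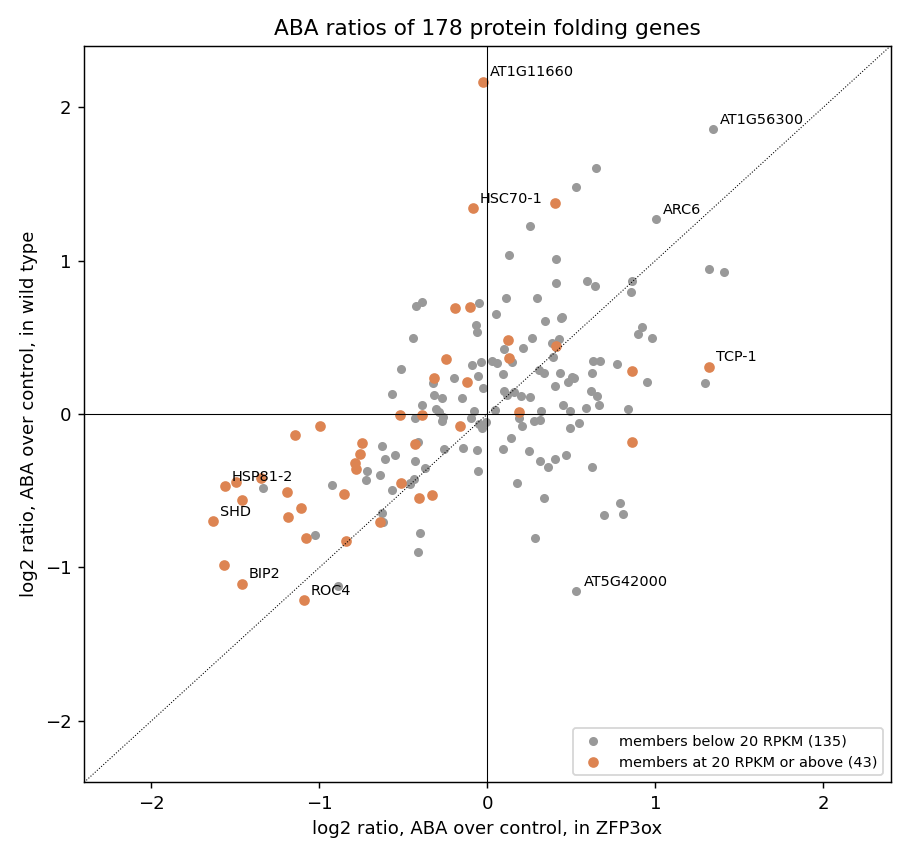
Log2 ratio of ABA over control in ZFP3ox (horizontal axis) against that in wild type (vertical axis), means of both column sets, 1 point per folding gene, orange for 43 genes at 20 RPKM or above, with a dotted line of equal ratios. SHD, BIP2 and ROC4 lie lower in both genotypes, AT1G11660 and HSC70-1 lie near 0 in ZFP3ox and above 1 in wild type, and TCP-1 lies above 1 in ZFP3ox and near 0 in wild type.

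The mean ABA ratio stood below that of wild type in ZFP3ox for 106 of the 178 genes, with a median difference of -0.09, against 0.04 over all genes. Among the 43 genes at 20 RPKM or above it was lower for 35, with a median difference of -0.47, against 62.7% and -0.21 over all genes at that level. Over all genes 46.5% had the lower ratio in ZFP3ox. At a difference of 4-fold, 1 folding gene was lower, AT1G11660 with a mean difference of -2.19, and none was higher, where 0.185% and 0.336% of all genes were. The differences have no test, since they use the whole of the 4 samples.

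An additive model over the 4 samples, fitted with limma across 22646 genes, tested the ABA effect averaged over genotypes. Its error is the departure from additivity in these samples, with 1 residual degree of freedom, and no spread within a group was measured. At an adjusted p (Benjamini-Hochberg) under 0.05 in limma, 1 folding gene was called higher with ABA, where 0.287% of all genes were, and 0 were called lower, where 0.362% of all genes were. AT1G56300 rose with ABA by 1.601 on the log2 scale (SE 0.25, limma adjusted p = 0.0438), and was higher in both ABA samples in both sets.

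The next genes missed the threshold: BIP2 had -1.29 (SE 0.24, limma adjusted p = 0.0667), BIP1 -1.28 (SE 0.25, limma adjusted p = 0.0770), ROC4 -1.15 (SE 0.23, limma adjusted p = 0.0801) and ARC6 1.14 (SE 0.24, limma adjusted p = 0.0854). At an unadjusted p under 0.05 in limma, 20 folding genes were higher with ABA (11.2%, against 13.3% of all genes) and 25 lower (14.0%, against 5.74% of all genes). With each sample rescaled by the median of its ratios to the mean sample, the limma fit called 8 folding genes (4.49%) lower with ABA in place of 0, where 2.27% of all genes were called lower: SHD, BIP1 and BIP2 of the ER, CR88, ROC4, CYP38 and FKBP13 of the plastid, and HSP81-3 of the cytosol, with limma adjusted p between 0.0134 for BIP2 and 0.0469 for HSP81-3. With a pseudocount of 0.25 or 5 RPKM, or with either set alone, the limma adjusted p of AT1G56300 was between 0.0521 and 0.328, so it was not called.

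The genotypes were then compared on ABA. Of the 178 genes, 8 were at least 2-fold lower in ZFP3ox than in wild type, where 2.03% of all genes were, and 3 at least 2-fold higher, where 2.70% of all genes were. None of the 8 lower genes and 2 of the 3 higher genes, TCP-1 and AT5G59610, were past 2-fold in both sets, where 0.503% and 0.631% of all genes were lower and higher. Of the 43 genes at 20 RPKM or above, 5 were lower (11.6%) and 2 higher (4.65%), against 5.84% and 5.02% of all genes at that level. The median ratio was -0.12, against 0.05 for all genes, and 12 of the 13 HSP70 genes and all 6 HSP90 genes had a mean ratio below 0, where 44.6% of all genes and 64.0% of all genes at 20 RPKM or above had.

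BOB1 (AT5G53400), a NudC-domain chaperone needed in Arabidopsis for development and heat tolerance, had the lowest ratio. It had 36.2 RPKM in ZFP3ox ABA, 51.2 in ZFP3ox control, 522 in wild-type ABA and 389.8 in wild-type control seedlings in set 1, and 6.55 RPKM in ZFP3ox ABA, 3.48 in ZFP3ox control, 11.1 in wild-type ABA and 8.74 in wild-type control seedlings in set 2. Both ZFP3ox samples were below both wild-type samples in each set, by far more in set 1. The log2 ratio of ZFP3ox to wild type was -3.81 and -0.67 with ABA, and -2.90 and -1.12 without.

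HSP70 genes supplied 4 of the 8 lower genes. AT1G11660 had ratios of -0.71 and -2.60, HSP91 -0.87 and -1.46, HSC70-1 -1.25 and -0.94, and BIP2 -0.99 and -1.03. AR192 had -0.59 and -1.94, and the J-domain genes AT2G05250 and AT2G33735 had mean ratios of -1.15 and -1.001. Among the higher genes, TCP-1 had ratios of 1.46 and 1.33, AT5G59610 1.86 and 1.07, and AT4G07990 0.27 and 2.301. AT5G59610, a J-domain gene, had 131 RPKM in ZFP3ox ABA, 71.2 in ZFP3ox control, 35.1 in wild-type ABA and 34.1 in wild-type control seedlings in set 1, and it overlaps AT5G59600 on the opposite strand by 2057 bases. ZFP3ox ABA was its highest sample in that set and, at 20.97 RPKM, in set 2 as well.

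Without ABA, 6 folding genes were at least 2-fold lower in ZFP3ox than in wild type, where 1.58% of all genes were, and 0 were at least 2-fold higher, where 0.954% of all genes were. BOB1 alone was past 2-fold in both sets, where 0.181% of all genes were lower and 0.137% higher. It was also the gene at 20 RPKM or above past 2-fold, 2.33% of the 43, where 2.81% of all genes at that level were lower and 1.86% higher. PFD6, a prefoldin subunit, had a mean ratio of -1.28, the J-domain genes AT2G33735 and AT5G01390 had -1.48 and -1.004, and AT5G42000 had -1.15. The sixth gene, AT4G34960, a cyclophilin with a mean of -1.07, had opposite signs in the sets. Mean ratios without ABA were -0.06 for SHD, -0.30 for BIP1 and -0.65 for BIP2, each below 0 in both sets. They were 0.22 for HSP81-2, 0.09 for cpHsc70-1, 0.21 for CPN60A, -0.01 for CPN60B, 0.33 for HSC70-1 and 0.54 for AT1G11660, all with opposite signs in the sets. In the additive model limma called 0 folding genes for genotype in either direction, where 0.00442% of all genes were called higher and 0.00442% lower. At an unadjusted p under 0.05 in limma, 6 were higher (3.37%, against 4.27% of all genes) and 8 lower (4.49%, against 3.02%). BOB1 had -2.13 (SE 0.24, limma adjusted p = 0.131), and under the rescaling by median ratios it passed the threshold (limma adjusted p = 0.0221), as did 0.0177% of all genes in that direction. Its adjusted p in limma was 0.119 to 0.899 under the other alternatives.

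**Figure D5:**
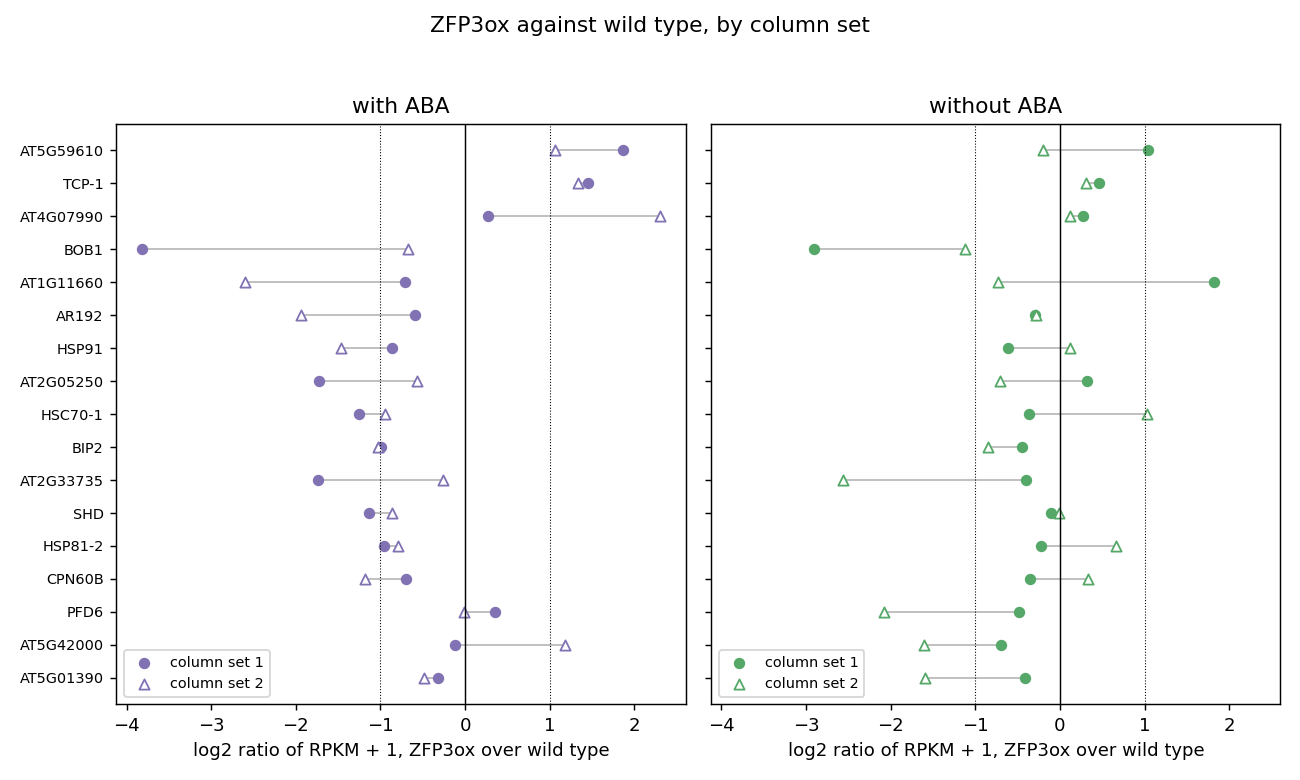
Log2 ratio of ZFP3ox over wild type (horizontal axis) for 17 folding genes, with ABA in the left panel and without ABA in the right panel, filled circles for column set 1, open triangles for column set 2 and dotted lines at 2-fold. BOB1 is lower in ZFP3ox in all 4 comparisons, TCP-1 is past 2-fold higher with ABA in both sets, and SHD, HSP81-2 and CPN60B have ratios below 0 with ABA in both sets, and means of -0.06, 0.22 and -0.01 without it.

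Genes of related pathways were set beside the folding genes. Of 5 regulators of the unfolded protein response, none was past 2-fold with ABA in either genotype: mean ABA ratios of BZIP60 were -0.01 in ZFP3ox and -0.10 in wild type, and those of BZIP28 were 0.29 in ZFP3ox and 0.43 in wild type. With ABA, BZIP17 was lower in ZFP3ox than in wild type, at ratios of -0.41 and -1.73. Of 8 genes for ER-associated degradation, none was past 2-fold in any comparison. Of 14 heat shock factor genes, 2 were at least 2-fold higher with ABA in wild type, where 4.65% of all genes were. HSFA3 had ratios of 0.892 and 1.57 there (mean 1.23), and HSFB2A 0.325 and 2.223 (mean 1.27). HSFB2A leaned on 14.92 RPKM in wild-type ABA in set 2, against 2.11 to 3.93 RPKM in the other samples. None of the 14 was past 2-fold with ABA in ZFP3ox, where 4.55% of all genes were higher and 2.23% lower. On ABA, HSFB2A was lower in ZFP3ox than in wild type, at ratios of -0.418 and -1.691 (mean -1.05), the second from that same value.

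Of 5 measured BAG co-chaperone genes, BAG1 was lower with ABA in wild type (-1.06), and BAG7, an ER co-chaperone that itself carries the folding term, had mean ratios of -0.64 in ZFP3ox and -0.70 in wild type. Of the 4 Clp-type chaperones of organelles, CLPC2, a plastid motor for import, was lower with ABA in ZFP3ox (-1.03). CLPB4 was past 2-fold in every comparison through single values: 37.20 RPKM in ZFP3ox ABA in set 2, against 6.0 to 9.02 RPKM in the other samples, and 67.61 RPKM in wild-type control in set 1, against 11.77 to 13.77 RPKM in the others. On ABA, CLPB3 was lower in ZFP3ox than in wild type, at ratios of -0.32 and -1.90.

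The authors' deposited tables of selected genes list 9 folding genes. The share of all genes that they list is not given here, so this count has no background. In them AT1G11660, AT1G56300, AT2G05250, AT1G77930, AT4G33060 and AT3G62190 are listed as higher with ABA, with signed folds in wild type between 2.36 for AT3G62190 and 5.01 for AT1G11660. ROC4 and BIP2 are listed as lower with ABA, with signed folds in the authors' deposited table of -2.14 and -2.74 in ZFP3ox, and -2.29 and -2.15 in wild type. BOB1 is the folding gene listed as lower in ZFP3ox, with signed folds in the authors' deposited table of -3.02 with ABA and -3.78 without, and none is listed as higher in ZFP3ox.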

How the data were processed

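RNA of 4 samples, 1 per group, was depleted of ribosomal RNA and read in 50-base SOLiD reads, per the labels' protocols. The authors deposited RPKM values for 23932 features in a pair of columns per sample, whose difference neither labels nor headers explain, so both count as 1 replicate. The authors' deposited settings give matching by strand, at most 2 mismatches and up to 10 places per read. The aligner was not given in the sources used here, nor was the genome build. Gene tables picked by the authors hold a signed fold, deposited as a score of at least 1 or at most -1. No column of another series was present.

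Members were picked by the annotated term, and family, compartment and pathway lists were written by hand; members and lists were chosen with earlier results of these data known. Values were log2(RPKM + 1) of genes with at least 1 RPKM in both columns of 1 sample (22646 genes). Ratios were taken within a column set and averaged, and counted at 2-fold (4-fold for a difference of ratios). Since no file holds counts, no counting interval is given. limma 3.58.1 in R 4.3.3 fitted an additive model (1 residual and 6.7 prior degrees of freedom), was tested on simulated data, and used Benjamini-Hochberg adjustment; no label names separate cultures, so its p-values measure only the spread between these samples. Other steps used Python 3.11.15 with pandas 2.3.3 and numpy 2.4.6. RefSeq TAIR10.1 gave names, lengths, overlaps, shared 50-base windows and promoters, not the study's coordinates. Genes were named by rule: per comparison up to 12 highest and 12 lowest past 2-fold with 1 sign in both sets, up to 10 limma calls per direction, the 2 most abundant per family, all HSP90, cytosolic HSP70 and BiP genes, and pathway genes past 2-fold. Genes beyond this rule were named after their values were seen. Alternatives were pseudocounts of 0.25 and 5 RPKM, no filter, median-of-ratios scaling, single column sets, limma with a trend and 8 columns as libraries.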

Additional observations from a re-analysis of the deposited data

Results flagged for a closer look

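For 11 of 178 folding genes both column sets gave an ABA ratio of 1 sign in ZFP3ox and of the other sign in wild type. The same count is not given for all genes, so it is not shown to be particular to folding genes. The difference in sign was not tested, since each group is 1 sample, and 3 of the 11 genes are given here. AT5G42000 had ABA ratios of 0.09 and 0.97 on the log2 scale in ZFP3ox (sets 1 and 2), the first of them close to 0, against -0.49 and -1.82 in wild type, a difference of the mean ratios of 1.68. Its RPKM in set 2 was 7.56 in ZFP3ox ABA, 3.37 in ZFP3ox control, 2.76 in wild-type ABA and 12.3 in wild-type control seedlings. HSC70-1, the main cytosolic HSP70 gene, had ratios close to 0 in ZFP3ox, -0.07 and -0.11, against 0.82 and 1.87 in wild type, a difference of -1.43, so opposite movement is not shown for it. AT1G23100, an organelle chaperonin gene named after its values were seen, had ratios of 0.97 and 0.42 in ZFP3ox, against -0.59 and -0.73 in wild type, a difference of 1.36. Its levels in set 2 were low, 1.61 RPKM in ZFP3ox ABA, 0.95 in ZFP3ox control, 0.46 in wild-type ABA and 1.42 in wild-type control seedlings.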

How the results depend on the processing

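No paired analysis was possible because the labels give no replicate numbers and each group is 1 sample, which also leaves no replicate to leave out. Counts of genes at least 2-fold higher or lower depended on the column set. Shares of all genes are not given for single sets, pseudocounts or scaling. The ratio counts under these settings therefore do not show whether folding genes shifted apart from other genes. The median ABA ratio of all genes in wild type was 0.31 in set 1 and -0.03 in set 2. In set 1 alone, ABA in ZFP3ox gave 31 lower genes in place of 15, ABA in wild type 18 higher and 14 lower in place of 10 and 4, ZFP3ox against wild type with ABA 10 higher in place of 3, the same without ABA 11 higher and 2 lower in place of 0 and 6, and the 4-fold difference of ABA ratios 4 lower in place of 1. In set 2 alone, these comparisons gave 18 higher (ABA in ZFP3ox, in place of 6), 12 lower (ABA in wild type), 11 higher and 14 lower (genotype with ABA, in place of 3 and 8), 5 higher and 15 lower (genotype without ABA), and 5 higher for the difference of ratios in place of 0. With 2-fold required in both sets, counts were 2 higher and 7 lower for ABA in ZFP3ox, 4 and 0 for ABA in wild type, 0 lower with ABA and 1 lower without ABA for genotype, and 0 lower for the difference of ratios. A pseudocount of 5 RPKM gave 2 higher (ABA in ZFP3ox), 2 lower (ABA in wild type), 4 lower and 1 lower (genotype with and without ABA) and 0 lower (difference of ratios), and one of 0.25 RPKM gave 7 higher for genotype with ABA. Median-of-ratios scaling gave 13 lower for genotype with ABA, and shifted the median ABA ratio of all genes to 0.02 in ZFP3ox and 0.00 in wild type, against 0.21 and 0.15 as deposited, and that of the folding genes to -0.15 and -0.11. In limma, the ABA call of 1 higher gene became 0 with pseudocounts of 0.25 and 5 RPKM and with either set alone, the 0 lower genes became 8 under median-of-ratios scaling (2.27% of all genes were called lower) and 2 with 8 columns as libraries (0.707% of all genes), and the 0 genes lower in ZFP3ox became 1 under that scaling. The cause of these shifts was not tested. Ratios named by their size were chosen for 1 sign in both sets, so neither set alone could turn them; of genes named by family, HSP81-2 and AT3G09440 had ABA ratios below 0 in wild type in the mean (-0.47 and -0.44) and above 0 in set 2 (0.33 and 0.79). Of the ratios named by size, 8 of 18, 4 of 13, 2 of 11 and 1 of 5 were past 2-fold under each of those alternatives for ABA in ZFP3ox, ABA in wild type, genotype with ABA and genotype without ABA. The uncertain depth of set 2, the unexplained difference in level between the sets and the single sample per group limit all ratios of weak genes.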
